A study of Drosophila melanogaster with 19 samples.

Results

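Four-cell spermatogonial cysts (S4) were set against gonialblasts (GB) in the *Drosophila melanogaster* testis, gene by gene. A gene entered the comparison when its value was at least 1 in 2 of the 9 stage columns and at least 8 on the higher of the S4 and GB sides; 6671 of the 12810 genes in the table met both conditions. The S4 group holds 2 libraries of cysts with 4 interconnected spermatogonia, and the GB group 2 libraries of gonialblasts, the daughters that leave the stem cell niche and start to divide. They belong to 19 labelled libraries of single cysts that run from the niche to late spermatocytes and include an *aly* group. Cysts were released from dissected testes by tearing the muscle sheath and picked by eye with a glass needle, and both groups were treated alike; the labels give neither a strain nor an age, and their cell type entry reads germline stem cell (GSC) for S4 and GB too.

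In the fly testis a gonialblast and its progeny divide by mitosis without completing cytokinesis, so that sister cells stay joined by ring canals inside 2 enclosing somatic cyst cells. These transit-amplifying divisions need repeated rounds of DNA synthesis, which start when the MCM helicase is loaded on origins, and of spindle assembly. The translational repressor Bam, acting with Bgcn and Tut, ends them and lets the cyst enter the spermatocyte programme.

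Values are RPKM (reads scaled to gene length and library size), deposited as 1 mean per stage; because each mean is a sum of whole reads, the libraries behind it could be recovered and are called a and b, with a the more deeply sequenced. The S4 libraries held 2058882 and 1103307 reads and the GB libraries 1610497 and 1450437, so that 3 reads on a gene of 1 kb stood for 1.05 and 2.26 RPKM in S4 and 1.40 and 1.58 RPKM in GB. A gene never reached more than about 1 read per base: in genes of at least 300 bases the highest value was 93.0 to 94.7% of that limit in the 4 libraries, the limits being 350.5 and 752.5 RPKM in S4 and 467.9 and 525.8 RPKM in GB. Differences between the most abundant RNAs are therefore compressed, and of the 429 genes above 50% of the limit in either stage 3 were at least 4-fold apart. The letters could not be tied to the replicate numbers of the labels, and nothing in the labels says that the libraries of a stage came from separate animals. A gonialblast is a single cell and an S4 cyst holds 4, so that stage and the number of cells picked cannot be told apart; nor can fewer cells of a type and less RNA per cell.

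The libraries of 1 stage were far apart. Of the 5939 genes at 8 RPKM or more in S4, 16.3% differed at least 4-fold between its libraries a and b, and of the 5789 such genes in GB, 26.6%. Across 11812 genes, Pearson's r of log2(RPKM + 1) was 0.856 between the S4 libraries and 0.800 between the GB libraries, while GB library b had r of 0.826 and 0.831 with S4 libraries a and b. GB library b was thus no nearer to GB library a than to S4. With 2 libraries against 2, an exact permutation test cannot go below p = 0.333, and limma's test across all genes passed too many false differences in simulated data of this design to be used for calls. Every difference below is therefore a description of these 4 libraries; it is the difference of the 2 stage values on the log2(RPKM + 1) scale, which understates differences of low genes. Where a standard error (SE) is given, it belongs to the library difference. This is the difference between the library means of log2(RPKM + 1) in limma's fit to all 20 recovered libraries. It departs from the stage difference where libraries of a stage disagree. The fit pools the spread within stages over the whole series, so that the SE does not measure the spread of the S4 and GB libraries alone.

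Most genes stood at similar levels in S4 and GB: the median difference over the 6671 genes was 0.085 on the log2(RPKM + 1) scale and 63.9% were within 2-fold. On the stage values, 651 genes (9.76%) were at least 4-fold higher in S4 and 577 (8.65%) at least 4-fold lower. Both S4 libraries stood above both GB libraries in 427 of the 651 (6.4% of the 6671 genes), and below both in 320 of the 577 (4.8%). The other 224 and 257 had overlapping libraries. Many large differences rested on 1 library: 107 and 105 of the 651 genes had under 3 reads in S4 library a and b, and 116 of the 577 in each of the GB libraries. At any size of difference, 1276 genes (19.1%) were higher in both S4 libraries than in both GB libraries and 1052 (15.8%) were lower.

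Large differences were most frequent in weakly expressed genes when the libraries were allowed to overlap. Among 1016 genes with 8 to 16 RPKM on the higher side, 19.5% were at least 4-fold higher in S4 and 15.4% at least 4-fold lower, against 1.73 and 2.33% of the 1505 genes at 128 RPKM or more. With separate libraries, the share higher in S4 was 10.7% at 8 to 16 RPKM and 1.40% at 128 RPKM or more. The share lower in S4 did not follow level in this way, being 5.32% at 8 to 16, 5.83% at 16 to 32, 6.55% at 32 to 64, 4.33% at 64 to 128 and 2.33% at 128 RPKM or more. Genes known by a CG or CR number alone made up 55.3% of the 427 and 59.1% of the 320, against 49.5% of all 6671.

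**Figure D1:**
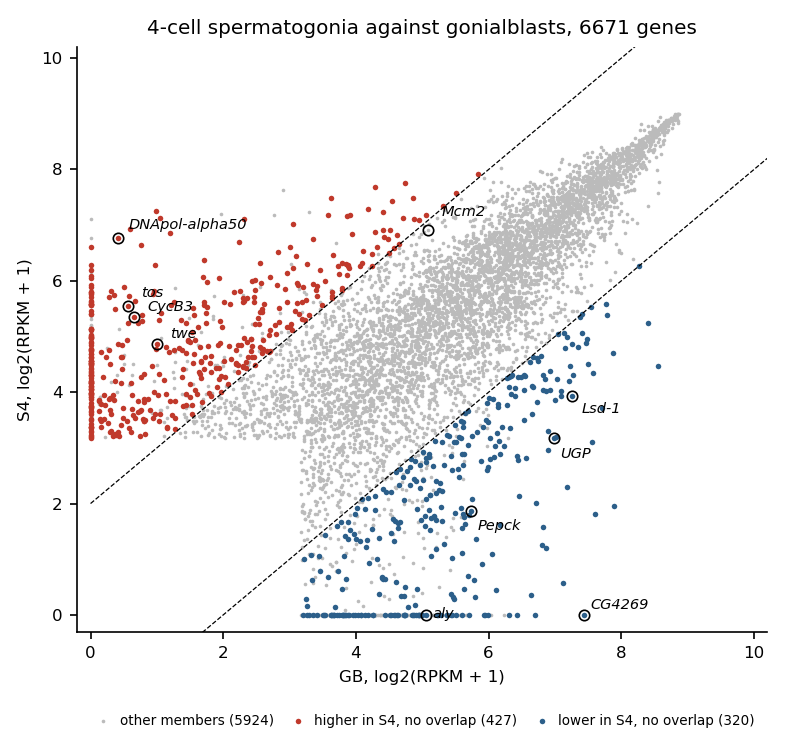
Stage value in S4 (vertical axis) against GB (horizontal axis), both as log2(RPKM + 1), for the 6671 genes; dashed lines mark a 4-fold difference, red points the 427 genes and blue points the 320 genes at least 4-fold apart whose libraries do not overlap, and circles the genes named. The cloud narrows towards the upper right, where values near the limit of 1 read per base, and the genes far from the diagonal mostly stand near 0 in 1 of the stages.

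Among genes with separate libraries, the largest differences towards S4 included the primase subunit *DNApol-alpha50* (now *Prim1*) beside genes with no shared role. *DNApol-alpha50* lies on chromosome 3L from 8340314 to 8344404 on the plus strand (BDGP6.54) and stood at 83.2 and 134 RPKM in the S4 libraries, against 0 and 0.673 RPKM in the GB libraries; 371 and 278 reads stand behind the S4 values and 0 and 2 behind the GB values. Its stage difference was 6.36 and its library difference 6.36 ± 0.73 (SE). *TfIIFbeta*, a subunit of the general transcription factor IIF on chromosome 3R, had 47.3 and 71.7 RPKM in S4 and no read in GB, a stage value at least 50.3-fold above the level of 3 reads per GB library. It shares 12.1% of its exon bases with *Cap-H2* on the other strand, and the source of such reads cannot be told apart without strand.

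The other 8 of the 10 largest with separate libraries were *CG31278*, *CG31344*, *fsd* (an F-box protein), *CG14072*, *CG8270* (*Bulli*, of the Mon1-Ccz1 trafficking complex), the yolk protein gene *Yp3*, *CG42566* and *CG18048*. Their differences lay between 6.06 and 6.602. *CG31344* had 121 and 120 RPKM in S4, against 0 and 1.02 in GB, and *CG14072* 146 and 157 in S4, against 0.601 and 1.35 in GB. *CG18048* was less even, with 14.2 and 117 RPKM in S4 and no read in GB. *Yp3*, made in fat body and ovarian follicle cells, had 134 and 146 RPKM in S4, against 0 and 2.12 in GB, while *Yp1* and *Yp2* had no read in any of the 4 libraries.

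Outside those 10, and picked after their values were seen, genes with equally separate libraries included *Caf1-105*, *gnu* and *c(3)G*. *Caf1-105* encodes a subunit of the chromatin assembly factor that follows the replication fork. *gnu* encodes an activator of the Pan gu kinase in early embryonic cycles, and *c(3)G* a protein of the synaptonemal complex. *Caf1-105* stood at 32.2 and 70.02 RPKM in S4, against 0 and 0.435 in GB. *gnu* stood at 76.6 and 40.1 RPKM in S4 and *c(3)G* at 12.4 and 15.8, and neither had a read in GB. *Rca1*, an inhibitor of the Fzr-bound anaphase-promoting complex, stood at 55.5 and 45.5 RPKM in S4, against 1.81 and 6.43 in GB.

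The replication genes as a group were slightly higher in S4, with a few members far apart. All 23 genes of origin licensing and firing were expressed, and their median difference was 0.54, beside 0.085 for all genes. *CDC45L* (Cdc45), which joins MCM in the active helicase, was the 1 licensing gene past 4-fold, at 32.9 and 12.1 RPKM in S4, against 6.06 and 0 in GB. Both S4 libraries exceeded both GB libraries in 7 of the 23, and none stood below both, beside 19.1% and 15.8% of all genes.

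*Mcm2*, a subunit of the helicase on chromosome 3R (8264970 to 8267924, plus strand), had 120 and 118 RPKM in S4, against 60.2 and 5.72 in GB, a stage difference of 1.82 and a library difference of 2.57 ± 0.72 (SE); against GB library b alone the stage difference was 4.16, and against GB library a alone 0.97. *dup* (Cdt1), which loads MCM, had 110 and 90.5 RPKM in S4, against 58.2 and 0 in GB, and its partner *Cdc6* 98.8 and 76.6 in S4, against 57.0 and 0.632 in GB. *Orc4*, of the origin recognition complex, had 103 and 69.8 RPKM in S4, against 61.3 and 4.54 in GB. In all 4 genes GB library a stood below both S4 libraries and GB library b far below GB library a.

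Other licensing genes showed the same split within GB and so no separation. *Orc6* had 123 and 79.6 RPKM in S4, against 128 and 1.67 in GB, *dpa* (Mcm4) 119 and 64.4 in S4, against 124 and 1.68 in GB, and *Mcm5* 183 and 165 in S4, against 182 and 25.8 in GB. *Psf2*, a GINS subunit, was split the other way, with 83.6 and 110 RPKM in S4, against 0 and 107 in GB. *geminin*, the inhibitor of Dup and the licensing gene with the highest value, stood at 250.4 and 384 RPKM in S4, against 250.5 and 296 in GB.

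At the replication fork, 13 of 18 genes were higher in both S4 libraries than in both GB libraries and none was lower in both. Over all genes these shares were 19.1% and 15.8%. The median difference of the fork genes was 0.83. Past 4-fold with separate libraries were 3 of the 18, *DNApol-alpha50*, *tos* and *DNApol-delta*, beside 6.4% of all genes. *tos*, the Exo1-like nuclease on chromosome 2L, had 46.5 and 45.4 RPKM in S4, against 0.947 and 0 in GB, a stage difference of 4.99 and a library difference of 5.07 ± 0.97 (SE). *DNApol-delta* (*PolD1*), the catalytic subunit of the lagging-strand polymerase, had 54.7 and 35.6 RPKM in S4, against 4.76 and 0 in GB. For these 3 both GB libraries were far below both S4 libraries.

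The remaining polymerase alpha subunits were low in GB library b alone. *DNApol-alpha60* (the large primase subunit) had 150 and 76.9 RPKM in S4, against 61.0 and 0 in GB, and *DNApol-alpha180* (catalytic subunit) 49.4 and 68.5 in S4, against 40.3 and 0 in GB. *DNApol-alpha73* had 109 and 66.9 RPKM in S4, against 73.3 and 16.4 in GB, with overlapping libraries. Primase and polymerase alpha work as 1 complex, so its 4 subunits differed among themselves in GB library a, where *DNApol-alpha50* alone had no read.

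The abundant fork genes differed little. *mus209* (PCNA), the sliding clamp, stood at 306 and 596 RPKM in S4, against 378 and 247 in GB, and the clamp-loader subunit *RfC4* at 267 and 405 in S4, against 226 and 188 in GB; these values are high enough for the limit of 1 read per base to compress them. In the nucleotide supply list, *RnrL*, the large subunit of ribonucleotide reductase, had 119 and 105 RPKM in S4, against 71.0 and 35.4 in GB, while the small subunit *RnrS* had 273 and 180 in S4, against 287 and 18.6 in GB. The median of the 5 supply genes was 0.43, and it was -0.22 without GB library b.

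**Figure D2:**
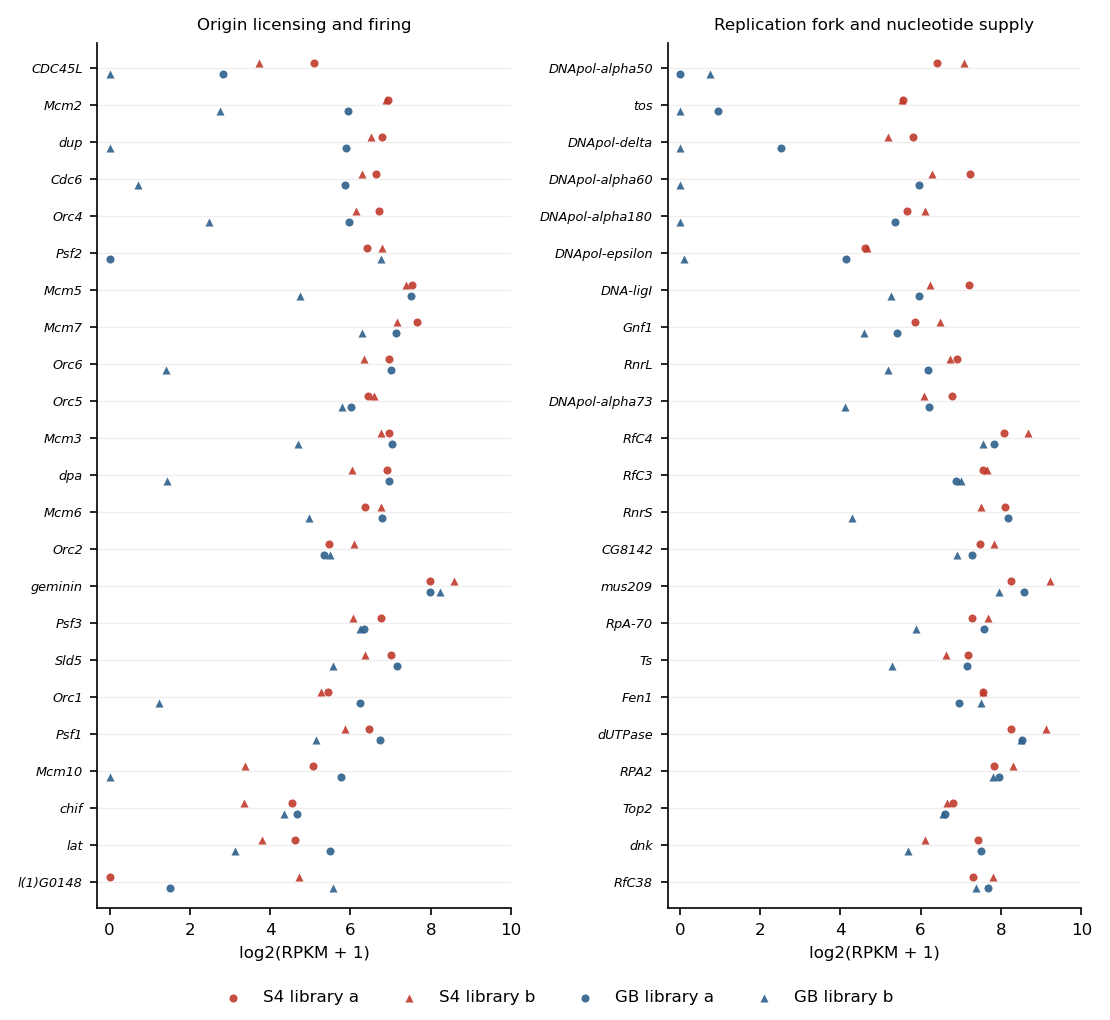
RPKM of each origin licensing gene (left) and each fork or nucleotide supply gene (right) in the 4 libraries, as log2(RPKM + 1), with S4 in red above GB in blue, circles for library a and triangles for library b, and genes ordered by the S4 minus GB difference. The blue triangles of GB library b trail far to the left in *dup*, *Cdc6*, *Orc6*, *dpa* and *DNApol-alpha60*, where the blue circles lie near the red points.

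Among 23 genes of mitotic entry, *CycB3* and *twe* were far higher in S4. *CycB3*, a mitotic cyclin on chromosome 3R (24867934 to 24870816, minus strand), had 54.3 and 25.7 RPKM in S4, against 0.736 and 0.414 in GB, a stage difference of 4.70 and a library difference of 4.62 ± 0.44 (SE). *twe*, the Cdc25 phosphatase of the meiotic divisions, had 29.1 and 27.6 RPKM in S4, against 0 and 1.99 in GB, a stage difference of 3.88 and a library difference of 4.08 ± 0.67 (SE). The libraries do not overlap in either, and the GB values rest on 0 to 9 reads each.

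The mitotic Cdc25 *stg* was nearly level apart from GB library b, at 25.03 and 27.1 RPKM in S4, against 24.2 and 1.03 in GB. *CycB* had 95.9 and 24.7 RPKM in S4, against 74.0 and 2.35 in GB, and *CycE* 25.1 and 12.4 in S4, against 27.5 and 0.324 in GB. *CycA* was higher in both S4 libraries, at 180 and 161 RPKM, against 130 and 79.1 in GB. The inhibitory kinase gene *wee* was lower in both S4 libraries, at 35.3 and 16.3 RPKM, against 134 and 53.8 in GB. *Cdk4* had the largest difference towards GB, which 1 library made: it stood at 0 and 0.612 RPKM in S4, against 61.6 and 0.428 in GB.

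Of the 23 genes, 2 were at least 4-fold higher and 1 (*Cdk4*) at least 4-fold lower, beside 9.76% and 8.65% of all genes. In both S4 libraries 7 were higher and 2 lower, beside 19.1% and 15.8% of all genes. The median difference was 0.56. With GB library a as the only gonialblast library that median was -0.09, and with GB library b as the only one 1.71. The direction of the mitotic entry list thus depended on which GB library S4 was set against.

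Of 40 spindle, kinetochore and checkpoint genes, 15 were higher and 2 lower in both S4 libraries, beside 19.1% and 15.8% of all genes. The median difference was 0.54. *Ndc80*, of the microtubule-binding kinetochore complex, had 56.7 and 65.7 RPKM in S4, against 0 and 15.4 in GB. *Klp67A*, a kinesin that shortens spindle microtubules, had 60.3 and 59.3 RPKM in S4, against 8.41 and 7.09 in GB, with replicates close together in both stages. *Nnf1b*, a kinetochore subunit, had 28.5 and 15.6 RPKM in S4, against 3.02 and 4.08 in GB. These 3 of the 40 were the spindle genes at least 4-fold higher, and in each both GB libraries stood below both S4 libraries. Of all genes, 6.4% met both conditions.

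*pav* (the kinesin of the central spindle) had 78.5 and 55.6 RPKM in S4, against 30.6 and 2.29 in GB, and *cid*, the centromeric histone, 92.1 and 57.7 in S4, against 33.1 and 6.63 in GB. The spindle checkpoint gene *Mad1* was more even within GB, with 56.3 and 72.2 RPKM in S4, against 15.8 and 23.0 in GB. *Mis12* (kinetochore) and *ald* (the checkpoint kinase Mps1) were lower in both S4 libraries: *Mis12* had 42.9 and 51.5 RPKM in S4, against 74.7 and 113 in GB, and *ald* 40.6 and 23.3 in S4, against 107 and 47.1 in GB. *Klp10A* was past 4-fold towards GB through library b, with 4.10 and 0 RPKM in S4, against 2.26 and 33.8 in GB.

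**Figure D3:**
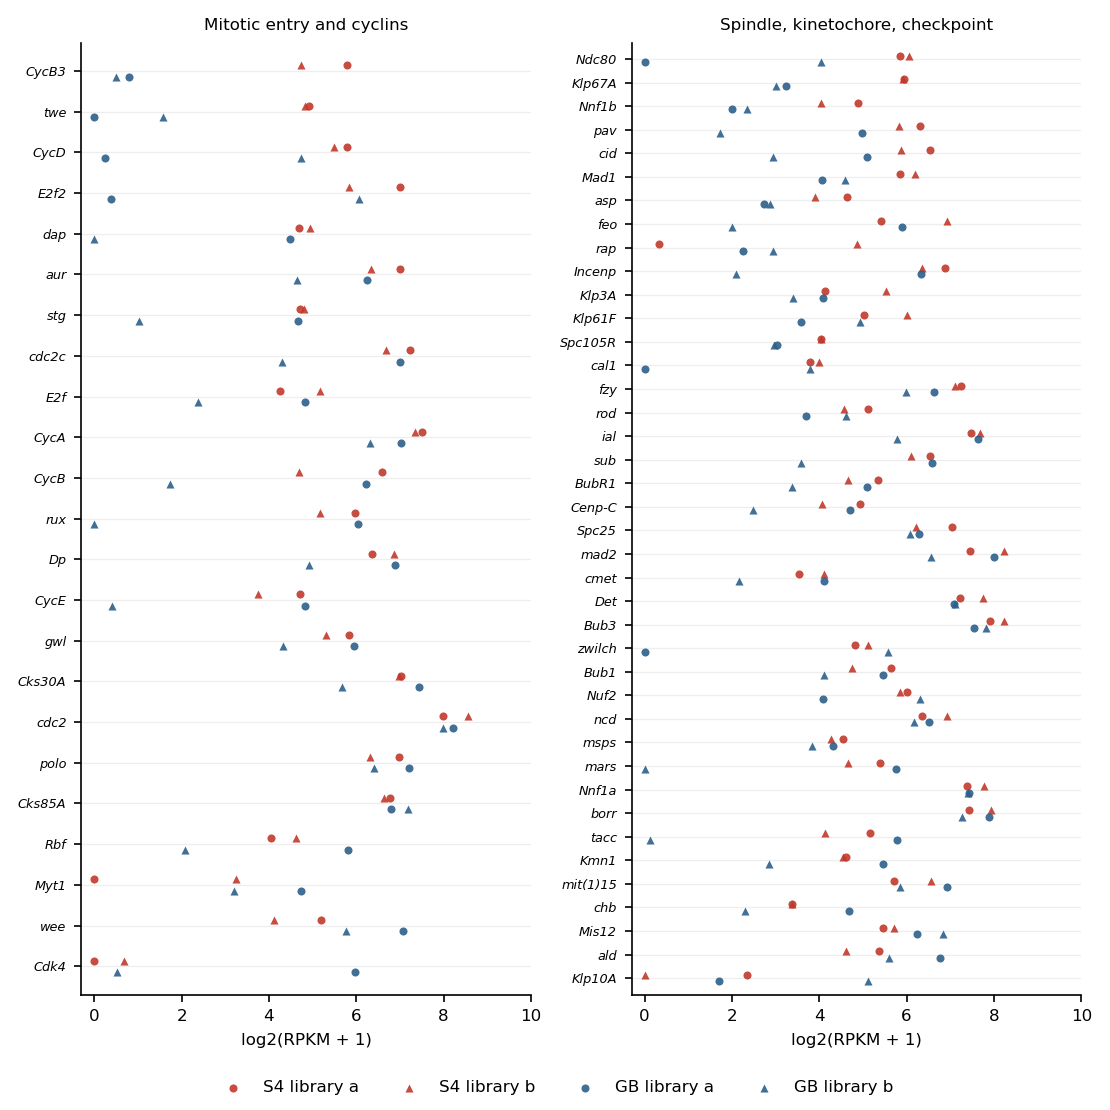
RPKM of the 23 mitotic entry genes (left) and the 40 spindle, kinetochore and checkpoint genes (right) in each library, as log2(RPKM + 1), with S4 in red above GB in blue, circles for library a, triangles for library b, and genes ordered by difference. *CycB3*, *twe*, *Klp67A* and *Nnf1b* have both blue points left of both red points by a wide gap, and in the middle of each panel the red and blue points overlap.

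Taken over the 109 replication, nucleotide and mitosis genes, GB library a exceeded GB library b at least 4-fold in 37 (33.9%) and the reverse held in 9 (8.26%), whereas among all 6671 genes the shares were 10.8% and 16.7%. Of these 109 genes 9 were at least 4-fold higher in S4 with separate libraries, 8.26% beside the 6.4% of all genes, and none was at least 4-fold lower with separate libraries, beside 4.8%. At any size, 43 were higher and 4 lower in both S4 libraries, 39.4% and 3.67% beside 19.1% and 15.8%. Set against GB library a, the median difference of the 46 replication and nucleotide genes was 0.20 for S4 library a and 0.34 for S4 library b; set against GB library b it was 1.61 and 1.44. The group's higher level in S4 was thus mostly a difference from GB library b, and the part that this library plays beside stage was not tested.

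The other division lists were nearly level. The chromosome structure list had a median of 0.31, with 5 of 18 genes higher and none lower in both S4 libraries, beside 19.1% and 15.8% of all genes. When 1 library was left out, the median lay between 0.00 (S4 library b) and 0.66 (GB library a). Its 1 gene past 4-fold was *Cap-H2*, of condensin II, with 15.6 and 9.21 RPKM in S4 and no read in GB, so that the S4 value was at least 34.0-fold above the level of 3 reads per GB library. *glu*, a condensin SMC subunit, had 71.3 and 48.6 RPKM in S4, against 15.4 and 20.4 in GB. None of the 10 genes of the anaphase-promoting complex (median 0.067) and none of the 15 of cytokinesis and ring canals (median 0.13) was 4-fold apart. The ring canal gene *cher* (filamin) had 6.73 and 14.8 RPKM in S4, against 0 and 10.4 in GB, and *kel* (Kelch) 22.0 and 9.90 in S4, against 21.5 and 24.3 in GB.

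DNA repair and checkpoint genes, a list drawn up after their values were seen, had 11 of 44 members at least 4-fold higher in S4 with separate libraries and none lower, beside 6.4% and 4.8% of all genes. *CG9272* (*Nthl1*, a base excision glycosylase) had 29.9 and 43.6 RPKM in S4, against 0 and 1.27 in GB. *CG5872* (*CtIP*, of DNA end resection) had 33.0 and 63.5 RPKM in S4, against 4.55 and 0 in GB. *tefu* (the ATM kinase) had 24.1 and 11.8 RPKM in S4, against 1.06 and 3.31 in GB, and *Parp* 39.3 and 37.5 in S4, against 0 and 16.9 in GB. *Fancm* (listed as *CG7922*), a translocase of the Fanconi pathway, stood on the other side, at 2.996 and 7.26 RPKM in S4, against 17.9 and 20.1 in GB. The list's median was 0.66, and between 0.51 and 0.96 under every alternative.

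None of 24 expressed early germline regulators was 4-fold apart between the stages, beside 9.76% of all genes higher and 8.65% lower. In this list 9 were higher and 3 lower in both S4 libraries, beside 19.1% and 15.8% of all genes, and the median was 0.27. *bam* stood at 129 and 167 RPKM in S4, against 196 and 78.4 in GB, and so did not separate. Its partner *bgcn* was lower in S4, at 30.5 and 17.8 RPKM, against 60.6 and 31.6 in GB, and *tut* (listed as *CG32364*) had 79.2 and 111 in S4, against 67.7 and 119 in GB. *hts*, which encodes the adducin of the fusome, and *alpha-Spec*, its spectrin, were higher in both S4 libraries: *hts* had 27.9 and 34.5 RPKM in S4, against 14.2 and 15.01 in GB, and *alpha-Spec* 56.5 and 54.2 in S4, against 21.0 and 41.8 in GB. The piRNA helicase gene *spn-E* had the largest difference of the list, at 29.5 and 16.5 RPKM in S4, against 13.2 and 2.93 in GB. *zpg*, the germline gap junction gene, had 125 and 275 RPKM in S4, against 266 and 315 in GB. The germline markers *vas*, *nos*, *bam*, *piwi*, *aub* and *zpg* had reads in all 4 libraries, and summed to 508 and 672 RPKM in S4 and to 684 and 568 RPKM in GB.

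Ribosome biogenesis genes were higher in both S4 libraries in 8 of 18 and lower in none, beside 19.1% and 15.8% of all genes. Their median was 0.30, and it was 0.58 when S4 library a was left out and 0.49 when GB library a was. Of the 2 members at least 4-fold higher, *ns1* (nucleostemin 1) had 104 and 184 RPKM in S4, against 5.83 and 58.7 in GB. *Nop56* and *nop5* (Nop58), core proteins of box C/D particles, were nearly level. *Nop56* had 288 and 429 RPKM in S4, against 338 and 357 in GB, and *nop5* 290.3 and 405 in S4, against 334 and 329 in GB. These values are high enough for the limit of 1 read per base to compress differences. The list of RNA polymerase I and III genes, drawn up after values were seen, had 4 of 20 members at least 4-fold higher with separate libraries and none lower, beside 6.4% and 4.8% of all genes. Its median was 0.47, and 1.43 when GB library b was left out. *CG5380* (*Polr3F*) had 95.3 and 133 RPKM in S4, against 1.70 and 27.2 in GB, and *RpIII128* (*Polr3B*), the second-largest subunit of polymerase III, 34.1 and 35.8 in S4, against 4.55 and 9.48 in GB. In this list GB library a was the low one, at least 4-fold below GB library b in 7 of the 20 genes and above it in none.

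The genes lower in S4 included many enzymes of sugar and lipid metabolism. In the sugar list, also drawn up after values were seen, 24 of 29 members were lower in both S4 libraries than in both GB libraries (15.8% of all genes), 9 of them at least 4-fold (4.8% of all genes), and 1 was higher (19.1% of all genes); the median difference was -1.14. The direction of the median was the same without any one of the 4 libraries, from -0.91 to -1.51. In the lipid list 10 of 19 were lower in both S4 libraries (15.8% of all genes), 2 were higher (19.1% of all genes), and the median was -1.59, from -0.74 to -2.0 without 1 library.

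Both Pepck genes, whose enzymes act early in gluconeogenesis, were low in S4. *CG10924* (*Pepck2*) had 0 and 0.214 RPKM in S4, against 31.1 and 22.1 in GB, and *Pepck* 5.02 and 0.284 in S4, against 45.0 and 59.5 in GB; a second annotated gene, *CG45087*, spans all exon bases of *Pepck*. *fbp*, the fructose bisphosphatase further along that pathway, had 67.3 and 51.7 RPKM in S4, against 187 and 184 in GB. The S4 and GB values are each close together for *fbp*.

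Glycogen and galactose enzymes showed the same order. *UGP*, which makes UDP-glucose, had 15.6 and 0.499 RPKM in S4, against 120 and 130 in GB, a stage difference of -3.80 and a library difference of -4.66 ± 0.77 (SE). *GlyP* (glycogen phosphorylase) had 23.3 and 5.27 RPKM in S4, against 186 and 85.2 in GB, *CG33138* (*AGBE*, the branching enzyme) 50 and 14.9 in S4, against 228 and 110 in GB, and *Galt* 3.31 and 23.9 in S4, against 124 and 128 in GB. In the oxidative pentose phosphate pathway, *Zw* (glucose-6-phosphate dehydrogenase) had 39.3 and 7.34 RPKM in S4, against 122 and 88.8 in GB, and *Pgd* 40.3 and 38.9 in S4, against 126 and 204 in GB.

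Glycolytic enzymes were lower by less. *Gapdh2* had 202 and 176 RPKM in S4, against 357 and 390 in GB, *Pgi* 116 and 158 in S4, against 309 and 260.0 in GB, and *Eno* 118 and 147.9 in S4, against 219 and 210 in GB. *Pgk* was nearly level, at 242 and 255 RPKM in S4, against 262 and 277 in GB. *ImpL3* (*Ldh*), lactate dehydrogenase, was the 1 member higher in both S4 libraries, at 9.83 and 19.5 RPKM, against 0.673 and 3.40 in GB. Several of these GB values lie in the range where the limit of 1 read per base compresses differences. Genes that overlap *UGP*, *Zw* and *wee* on the other strand cover 21.4, 16.4 and 12.6% of their exon bases, and the strand of the reads is not given in the sources used here.

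Among lipid genes, *Lsd-1*, the perilipin of lipid droplets, had 23.2 and 5.36 RPKM in S4, against 112 and 192 in GB. *fu12* (*Agpat2*), an acyltransferase of phospholipid and triglyceride synthesis, had 0 and 1.75 RPKM in S4, against 91.3 and 25.96 in GB, and *Acsl*, which activates fatty acids, 18.2 and 9.53 in S4, against 47.8 and 79.2 in GB. *ACC*, the first enzyme of fatty acid synthesis, had 16.6 and 19.9 RPKM in S4, against 51.5 and 50.1 in GB. The peroxisomal oxidase gene *Acox57D-p* went the other way, at 17.6 and 9.28 RPKM in S4, against 0.186 and 0 in GB, while its neighbour *Acox57D-d* had 2.48 and 5.33 in S4, against 1.24 and 45.1 in GB.

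**Figure D4:**
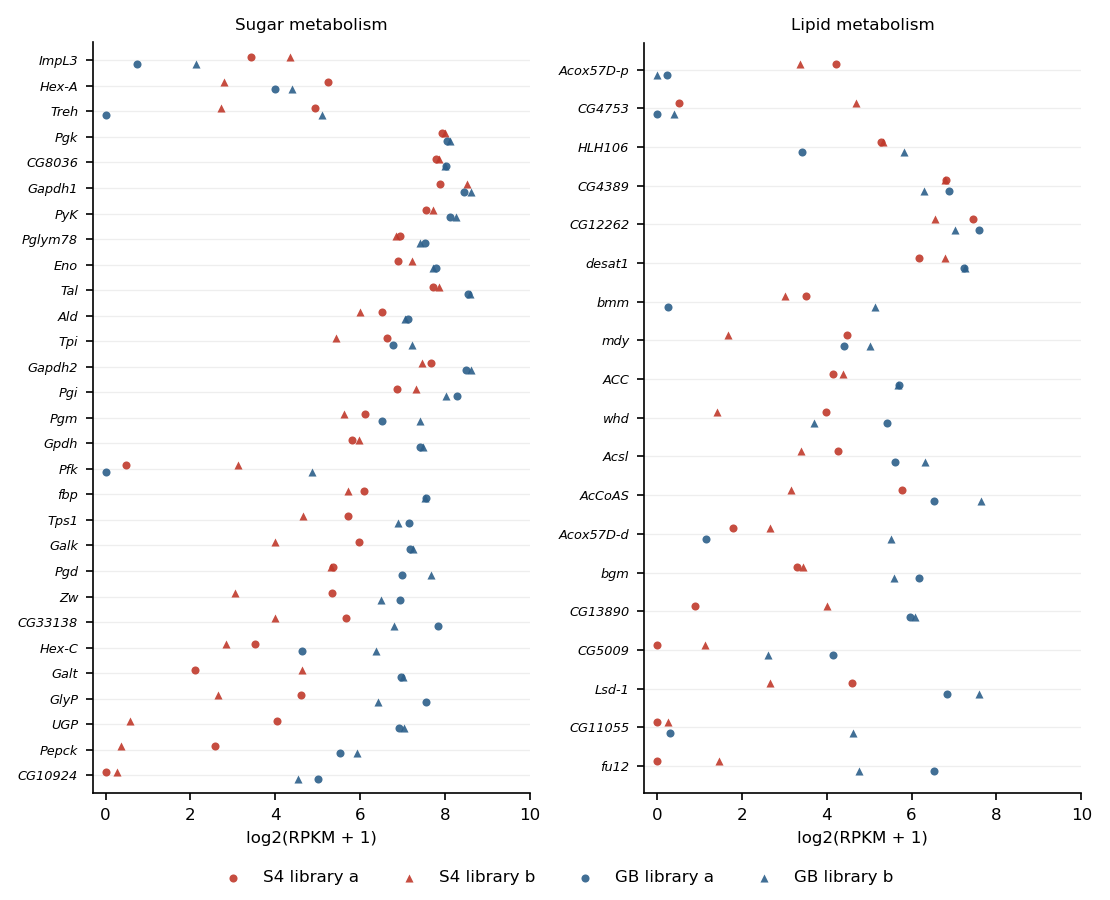
RPKM of the 29 sugar metabolism genes (left) and the 19 lipid metabolism genes (right) in each library, as log2(RPKM + 1), with S4 in red above GB in blue, circles for library a, triangles for library b, and genes ordered by difference. In the left panel both blue points lie right of both red points in every gene from *CG10924* to *PyK* except *Pfk*.

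The 10 largest differences towards GB with separate libraries were *CG4269*, *CG8147* (*phu*), *CG34136*, the digestive protease gene *Jon25Biii*, *CG14079*, *sug* (Sugarbabe, a zinc finger factor that responds to dietary sugar), *CG17109*, *CG7142*, *CG14302* and *CG13912*. They lay between -5.93 and -7.43. *CG4269* on chromosome 2R had no read in S4, against 197 and 146 RPKM in GB, so that S4 was at least 54.2-fold below the GB value at 3 reads per S4 library; 16.3% of its exon bases overlap *CG4294*. *sug* had 0 and 0.561 RPKM in S4, against 41.5 and 155 in GB, and *CG34136* 0.993 and 0 in S4, against 141 and 135 in GB. For 7 of the 10 neither S4 library had a read.

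Genes of the later germline differed by member. *aly*, the regulator that opens the spermatocyte programme, had no read in S4, against 22.3 and 42.2 RPKM in GB (108 and 182 reads), at least 44.2-fold lower at 3 reads per S4 library. *can* and *comr*, which act in that programme, had no read in any of the 4 libraries, while *Taf12L* had 154 and 248 RPKM in S4, against 0 and 208 in GB. Of the 4 expressed genes in the meiotic arrest list, 3 had a higher stage value in S4 and 1, *aly*, a lower one. Over all 6671 genes, 3678 were higher and 2993 lower. The median of the 4 genes was 0.59. The 8 spermatocyte markers summed to 24.8 and 72.9 RPKM in S4 and to 62.5 and 50.2 RPKM in GB, so that the stages overlapped. All 7 expressed spermatid genes were at 0 in both S4 libraries and in GB library b, and stood at 19.7 to 129 RPKM in GB library a, the highest being *Mst87F*. *betaNACtes4* and *CG31226*, picked after their values were seen and both near 140 RPKM in early spermatocytes (EC), were also lower in S4. *betaNACtes4* had 0 and 0.744 RPKM in S4, against 19.0 and 117 in GB, and *CG31226* had no read in S4, against 75.4 and 19.9 RPKM in GB.

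Genes of dosage compensation were low in S4 in part. *mle*, the RNA helicase of the complex, had 4.26 and 4.82 RPKM in S4, against 19.1 and 17.2 in GB. The non-coding RNA *roX1* had 9.80 and 1.19 RPKM in S4, against 9.87 and 50.5 in GB, and *roX2* had no read in S4, against 26.5 and 3.06 RPKM in GB. Of the 6 expressed members 3 were lower and none higher in both S4 libraries, beside 15.8% and 19.1% of all genes. The 989 X-linked genes had a median difference of 0.13, as did the 1598 genes on chromosome arm 3R, beside 0.085 for all.

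Heat shock genes split by member. *Hsp68*, an inducible chaperone, had 35.7 and 30.4 RPKM in S4, against 3.78 and 0 in GB. *Hsp22* had 13.3 and 13.5 RPKM in S4, against 1.48 and 1.11 in GB, but shares all its exon bases with *CG4456*. *Hsp26*, *Hsp23* and *Hsp83*, all between 265 and 504 RPKM in the 4 libraries, differed by -0.02 to -0.16. Their values are high enough for the limit of 1 read per base to compress differences. The inducible *Hsp70Bc* stayed at or under 1.47 RPKM in the 4 libraries.

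RNA of other tissues was present. The 8 gut markers summed to 66.6 and 2467 RPKM in the S4 libraries and to 584 and 537 RPKM in the GB libraries; *PGRP-SC2*, for example, had 0 and 274 RPKM in S4 and no read in GB. Several gut genes have near-identical copies (*LysB* and *LysE*, *Amy-d* and *Amy-p*, *alphaTry* and *betaTry*), so that the share of each is uncertain. Of the 29 expressed gut enzymes 14 were at least 4-fold higher in S4 (9.76% of all genes), 5 of them with separate libraries (6.4%). At least 4-fold lower were 5 (8.65% of all genes), 4 of them with separate libraries (4.8%).

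Muscle sheath markers summed to 383 and 66.9 RPKM in S4 and to 240 and 226 RPKM in GB, so that the stages overlapped. *Mlc1* was higher in both S4 libraries, at 60.1 and 12.7 RPKM, against 2.95 and 6.63 in GB. Of the 11 expressed genes in the muscle list 2 were higher and 1 lower in both S4 libraries, beside 19.1% and 15.8% of all genes. The median of that list was 0.26, and -1.25 without S4 library a. The 5 cyst cell markers summed to 29.5 and 14.3 RPKM in S4 and to 0.0755 and 23.7 RPKM in GB. These sums overlapped, with GB library b between the S4 libraries. In S4 4 and 3 of the 5 markers had a read, and in GB 1 and 4. Of these, *eya* and *zfh1* were higher in both S4 libraries, *eya* at 13.4 and 3.67 RPKM, against 0 and 0.571 in GB. The hub genes *os* (upd1), *Fas3* and *CadN* had no read in any of the 4 libraries, and the 6 hub markers summed to 6.304 and 2.29 RPKM in S4 and to 1.52 and 2.17 RPKM in GB. *gbb*, a BMP ligand, had 106 and 20.8 RPKM in S4, against 0 and 8.83 in GB. The 5 fat body markers summed to 134 and 146 RPKM in S4 and to 0 and 4.17 RPKM in GB, nearly all of it *Yp3* and with no overlap of the stages. The 5 haemocyte markers in the table summed to 54.9 and 27.5 RPKM in S4 and to 94.3 and 122 RPKM in GB, mostly the collagen genes *Cg25C* and *vkg*, and were lower in both S4 libraries. The part of these tissues in the differences above was not tested.

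Across the other stages, the 427 genes higher in S4 were not particular to it. Their median stage value was 26.5 RPKM in S4 and 1.28 RPKM in GB. It was 13.4 RPKM in the niche, 20.3 RPKM in 8-cell cysts (S8), 14.6 RPKM in the 16-cell cyst (S16) and 19.8 RPKM in EC. Of the 427, 260 (60.9%) reached 8 RPKM in the niche and 324 (75.9%) in S8, beside 78.1% and 85.6% of all 6671 genes. The low value in GB is set by how these genes were chosen. The 320 genes lower in S4 had medians of 2.66 RPKM in S4 and 38.3 RPKM in GB. Their medians were 14.7 RPKM in the niche, 7.90 RPKM in S8, 1.22 RPKM in S16 and 4.97 RPKM in EC. Of the 320, 158 (49.4%) reached 8 RPKM in S8, beside 85.6% of all genes. The S4 and GB medians are fixed by the choice of these genes; the other stages are a description.

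The 3 genes given as S4 markers differed in this respect. *DNApol-alpha50* had 29.2 and 170 RPKM in the niche libraries, 92.1 and 109 in S8, 29.6 in S16 and 0 to 1.78 in EC. *Mcm2* had 49.3 and 22.5 RPKM in the niche libraries, 145 and 130 in S8, 38.6 in S16 and 27.0 to 33.7 in EC. *CycB3* had 29.0 and 28.2 RPKM in the niche libraries, 64.1 and 41.7 in S8, 1.27 in S16 and 36.5 to 60.9 in EC, and reached 125 in the first of the late spermatocyte stages (LC1). In all 3 the S8 libraries stood at or near the S4 level, so that none of them was high in S4 alone. *DNApol-alpha50* and *CycB3* were lower in both GB libraries than in both niche libraries, whereas *Mcm2* in GB library a stood above both niche libraries.

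**Figure D5:**
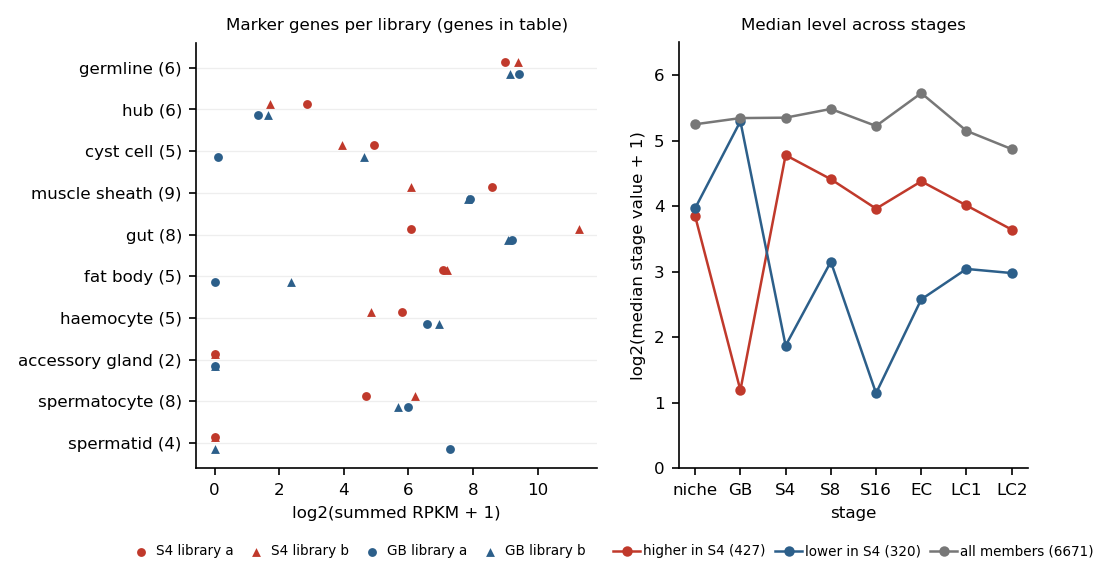
Left, summed RPKM of marker genes of each cell type in the 4 libraries, as log2(summed RPKM + 1), with S4 in red above GB in blue, circles for library a and triangles for library b, and the number of genes in brackets. Right, median stage value, as log2(value + 1), from the niche to the last spermatocyte stage. It is shown for the 427 genes higher and the 320 lower in S4 and for all 6671 genes. The gut sum is highest in S4 library b. The median of the 427 genes dips in GB, where the choice of these genes sets it low.

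At the edge of the inclusion rule, *ftz-f1*, *CG1271* and *CG3376* stood just inside, at 8.007, 8.012 and 8.021 RPKM on the higher side, and *Su(var)3-3*, *CG5888* and *CG31525* just outside, at 7.994, 7.992 and 7.992 RPKM. At the 4-fold line, *Sry-delta* was just inside on the S4 side, with 100.3 RPKM in S4 against 24.2 in GB, and *CG1246* just outside, with 10.8 in S4 against 1.96 in GB. On the GB side *CG34166* was just inside, with 75.8 RPKM in S4 against 306 in GB, and *Kebab* just outside, with 4.57 in S4 against 21.2 in GB.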

How the data were processed

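Single cysts were profiled by RNA-seq from oligo(dT)-primed, PCR-amplified cDNA, per the labels' protocols. The deposited values are RPKM, written cRPKM without expansion per the file headers, with 1 mean per stage; Bowtie 0.12.7 and edgeR are named, with no role, per the submitters' processing notes, while the sources used here give neither build nor annotation. From these means the whole reads of 20 libraries were solved (relative gap at most 6.18e-15); LC2 gave 3 libraries where 2 are labelled. Letters order the libraries by size. limma 3.58.1 in R 4.3.3 was fitted to log2(RPKM + 1) of all libraries with 9 group means. Its tests were checked on simulated data, and because no threshold kept false calls within the 5% allowed, no calls are reported. Members, lists and markers were chosen with earlier results of these data known, and the DNA repair, polymerase, centrosome, sugar, lipid and family lists after values were seen. Named were the 3 markers, the 10 largest differences each way with separate libraries, members of the replication, mitosis and early germline lists, and in each other list those with the largest differences or values; other named members were picked after their values were seen. Positions and overlaps are from BDGP6.54, to which 95.8% of the 6671 genes matched. Alternatives were other pseudocounts, minimums, scalings and folds, and leaving out each library.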

Additional observations from a re-analysis of the deposited data

How the results depend on the processing

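Counts of distant genes depended on the pseudocount, the fold and the libraries. A pseudocount of 5 left 341 genes past 4-fold on the S4 side and 316 on the GB side, and 236 and 200 with separate libraries; at 2-fold the counts were 1253 and 1153, and 829 and 645. Leaving out 1 library gave 612 to 1327 genes higher and 563 to 828 lower, and 612 to 1071 and 525 to 566 with separate libraries; the highest counts on the S4 side, 1327 and 1071, came without GB library b. Scaling to total reads or by quantiles moved the median of all genes by -0.036 and -0.063.

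limma's test at an adjusted p under 0.05, not used for calls, passed 298 genes higher and 207 lower with separate libraries, 82 and 56 with weights per stage, and 358 to 846 and 271 to 442 without 1 library. Fitted to the S4 and GB libraries alone, it passed 0 and 0, and 306 and 268 genes were at an unadjusted p under 0.05.

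Without 1 library, the median difference ranged from 0.13 to 1.61 for licensing, 0.55 to 1.57 for the fork, -0.09 to 1.71 for mitotic entry and 0.36 to 1.18 for spindle genes, each time lowest without GB library b and highest without GB library a. The gut list's median was 1.93 with all libraries and -0.97 without S4 library b, and that of the cuticle genes 1.17 and, without S4 library a, -3.69; the cause was not tested. The median differences of the lists were recomputed under each alternative, leaving out the hub, cyst cell and accessory gland lists. Of these, 202 moved by less than the spread between replicates and 30 by more. Some of the 202 still changed direction, as did the gut median without S4 library b and the mitotic entry median without GB library b.

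No paired analysis was possible because the recovered libraries carry no replicate number. Promoter motifs were not run, since no promoter sequence was used here. Read depth limits weak genes, of which 3 reads on 1 kb stand for 1.05 to 2.26 RPKM.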

Other observations

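Of 28 expressed cuticle protein genes, 9 were at least 4-fold higher in S4 (9.76% of all genes), none with separate libraries (6.4%). At least 4-fold lower were 7 (8.65% of all genes), 5 of them with separate libraries (4.8%). The median level of the 28 genes was 41.4 RPKM in S4 library a and 0 in S4 library b, against 1.98 and 15.5 RPKM in GB libraries a and b. Of 22 expressed cytochrome P450 genes, 5 were at least 4-fold lower and 2 at least 4-fold higher in S4 with separate libraries, beside 4.8% and 6.4% of all genes. *Cyp12a4* had 0 and 4.00 RPKM in S4, against 154 and 70.2 in GB, and *Cyp12e1* had 35.9 and 59.9 in S4, against 0 and 7.79 in GB. The 89 expressed cytoplasmic ribosomal protein genes, most of them near the limit of 1 read per base, had medians of 276 and 590.0 RPKM in S4 and 368 and 416 RPKM in GB, the order of the library limits. None of the 89 was 4-fold apart, beside 9.76% of all genes higher and 8.65% lower.

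The centrosome list, drawn up after values were seen, had a median near 0 (-0.02) with members on both sides. *gammaTub37C*, a gamma-tubulin best known from the female germline, stood at 29.5 and 17.8 RPKM in S4, against 0 and 0.346 in GB. *Sas-4*, needed for centriole duplication, had 44.6 and 65.4 RPKM in S4, against 8.82 and 14.1 in GB. *Grip71*, a gamma-tubulin ring protein, had 12.3 and 7.95 RPKM in S4, against 53.9 and 40.5 in GB. Of the 26 expressed members 8 were higher and 3 lower in both S4 libraries, beside 19.1% and 15.8% of all genes.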
